A study of Mus musculus with 16 samples.

Results

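A set of 8 genes tied to the monocyte and macrophage fate was followed in bone marrow progenitors of mice with and without a PyMT mammary tumor: Maf, Klf2, Klf4, Nr4a1, F13a1, Ly6c1, Fcgr1 and Emr1. They were read by every noncontrol array probe that carries one of these symbols, with Emr1 written as Adgre1 on the array. This gave 11 probes for 8 genes, of 39429 probes and 28631 gene names in all, with 2 probes each for Emr1, F13a1 and Ly6c1. All 11 probes passed the filter on dim probes.

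The arrays compared macrophage-dendritic cell progenitors (MDPs), which can still become monocytes, macrophages or dendritic cells, with common dendritic cell progenitors (CDPs), the next step towards dendritic cells. The donors were female C57/Bl6 mice. In the PyMT groups they carried orthotopic PyMT B6 tumors in the mammary fat, grown to 1.5 cm in diameter from a cell line of the MMTV-PyMT model, and in the Normal groups they were age-matched and tumor-free. The study's methods give a general age range of young adults for its mice. MDP_Normal, MDP_PyMT, CDP_Normal and CDP_PyMT had 4 arrays each, numbered 2 to 5, and each array held the sorted progenitors of a pair of pooled mice after lineage depletion, from 4 independent experiments by the series' design. A single transplanted tumor line stands for the tumor here. The study's list of sort markers was not used here, and whether a surface protein of a member gene was gated on was not checked.

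Transcripts of progenitor markers were looked at in the sorted cells. Whether the products of Csf1r, Flt3 or Kit were gated on in the sort was not checked, so their values are no independent test of identity. Csf1r and Flt3, receptors shared by both progenitors, were well above background on all 16 arrays. Kit, the stem cell factor receptor that falls at the CDP stage, was lower in CDPs in tumor-free mice (-2.59 log2 units, limma adjusted p = 3.8e-06). Cd34, Cx3cr1 and Ly6a, the other markers of the list, were well above background on all 16 arrays. From MDPs to CDPs in tumor-free mice Cd34 had -1.15 log2 units (limma adjusted p = 0.0073). Cx3cr1 had 0.90 (adjusted p = 0.272) and Ly6a 0.66 (adjusted p = 0.053) in this step. Il7r, a lymphoid receptor, did not reach signal well above background on 3 of 4 arrays in any group. On each array 58.8% to 71.5% of probes were well above background. The arrays lay on 4 slides, each scanned once. Every slide held both Normal groups. CDP_PyMT had no array on slide 1, and MDP_PyMT had none on slide 4.

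Maf, Klf2, Klf4 and Nr4a1 encode transcription factors. Klf4 is a zinc finger factor that supports monocyte differentiation, Klf2 is its close relative and a brake on inflammatory activation of myeloid cells, Nr4a1 is an orphan nuclear receptor that nonclassical monocytes need, and Maf is a basic leucine zipper factor of tissue macrophages. The other members are products by which these cells are known. Fcgr1 encodes the high-affinity IgG receptor CD64, Emr1 an adhesion receptor widely used as a macrophage marker, Ly6c1 a GPI-anchored surface antigen of the Ly6C pair, and F13a1 the transglutaminase subunit of clotting factor XIII, which monocytes and macrophages make.

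The promoters of the 3 members that changed at the step from MDP to CDP are shown first, with matches to motifs of monocyte regulators in capitals. RefSeq on GRCm38.p6 lists a start for 6 of the 8 genes (8 windows in all). The 250 bases before each start were searched on both strands for CACCC (the box that KLF factors bind), AAAGGTCA (the NR4A element), TGCTGA (the core of the MAF element), GAGGAA (the core bound by PU.1) and TTCNNNGAA (the STAT element). Of 32851 promoter windows of the same length, 52.0% held CACCC, 1.34% AAAGGTCA, 16.1% TGCTGA, 23.3% GAGGAA and 7.02% TTCNNNGAA.
Klf2, chr8:72318812-72319061, plus strand: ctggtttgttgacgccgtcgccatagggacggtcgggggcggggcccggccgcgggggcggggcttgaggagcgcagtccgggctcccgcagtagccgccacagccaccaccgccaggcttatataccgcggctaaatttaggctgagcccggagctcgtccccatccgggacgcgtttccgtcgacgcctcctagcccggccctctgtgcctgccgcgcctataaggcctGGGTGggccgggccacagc
Klf4, chr4:55532476-55532725, minus strand: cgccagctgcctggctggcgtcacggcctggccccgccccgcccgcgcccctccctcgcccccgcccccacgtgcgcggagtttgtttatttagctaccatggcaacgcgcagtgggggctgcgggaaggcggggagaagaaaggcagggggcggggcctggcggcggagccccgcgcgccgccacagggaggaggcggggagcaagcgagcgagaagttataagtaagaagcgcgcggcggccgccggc
Fcgr1, chr3:96293970-96294219, minus strand: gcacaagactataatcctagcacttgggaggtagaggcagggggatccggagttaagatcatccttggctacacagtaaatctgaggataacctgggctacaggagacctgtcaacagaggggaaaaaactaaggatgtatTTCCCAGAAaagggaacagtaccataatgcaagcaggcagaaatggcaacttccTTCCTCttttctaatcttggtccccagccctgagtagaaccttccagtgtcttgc
The Klf2 window held 1 CACCC match, read on the opposite strand, from -19 to -15 relative to the start. The Klf4 window held no match. The Fcgr1 window held TTCNNNGAA, which reads the same on both strands, from -109 to -101 and GAGGAA on the opposite strand from -55 to -50. The Klf2 and Klf4 windows were rich in G and C (71.2% and 74.0%), and the Fcgr1 window was not (47.6%). A match describes letters only. None of the 8 windows held the NR4A element or the MAF core.

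Values are given below as the log2 signal minus the 75th percentile of the same array, so that 0 is the signal of a bright probe and each unit is a doubling. Levels of different probes are not compared. A probe was called when the limma fit over the 16 arrays gave a false discovery rate under 0.05, adjusted over all 27433 probes tested, and a fold change above 1.5. In counts of genes, rose and fell mean called higher and called lower.

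Klf2 and Klf4 rose from MDPs to CDPs in tumor-free mice, by 15.0-fold and 3.96-fold. In tumor-bearing mice Klf4 rose by 2.30-fold and Fcgr1 by 5.58-fold over the same step. No member probe was called between tumor-bearing and tumor-free mice, in CDPs or in MDPs. In the tumor-free step 2 of 11 member probes were called, beside 6.07% of all probes tested, and in the tumor-bearing step 2 of 11, beside 7.24%. In CDPs 0 of 11 were called for the tumor, beside 1.79% of all probes, and 1 of 11 had an unadjusted p under 0.05. In MDPs 0 of 11 were called, beside 0.062%, again with 1 under an unadjusted 0.05. For the difference between the tumor changes of CDPs and MDPs 0 of 11 were called, beside 0.0146% of all probes, with 2 under an unadjusted 0.05. These comparisons share arrays, since each group enters a tumor comparison and a step. In bulk arrays fewer cells of a type and less RNA per cell cannot be told apart.

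**Figure D1:**
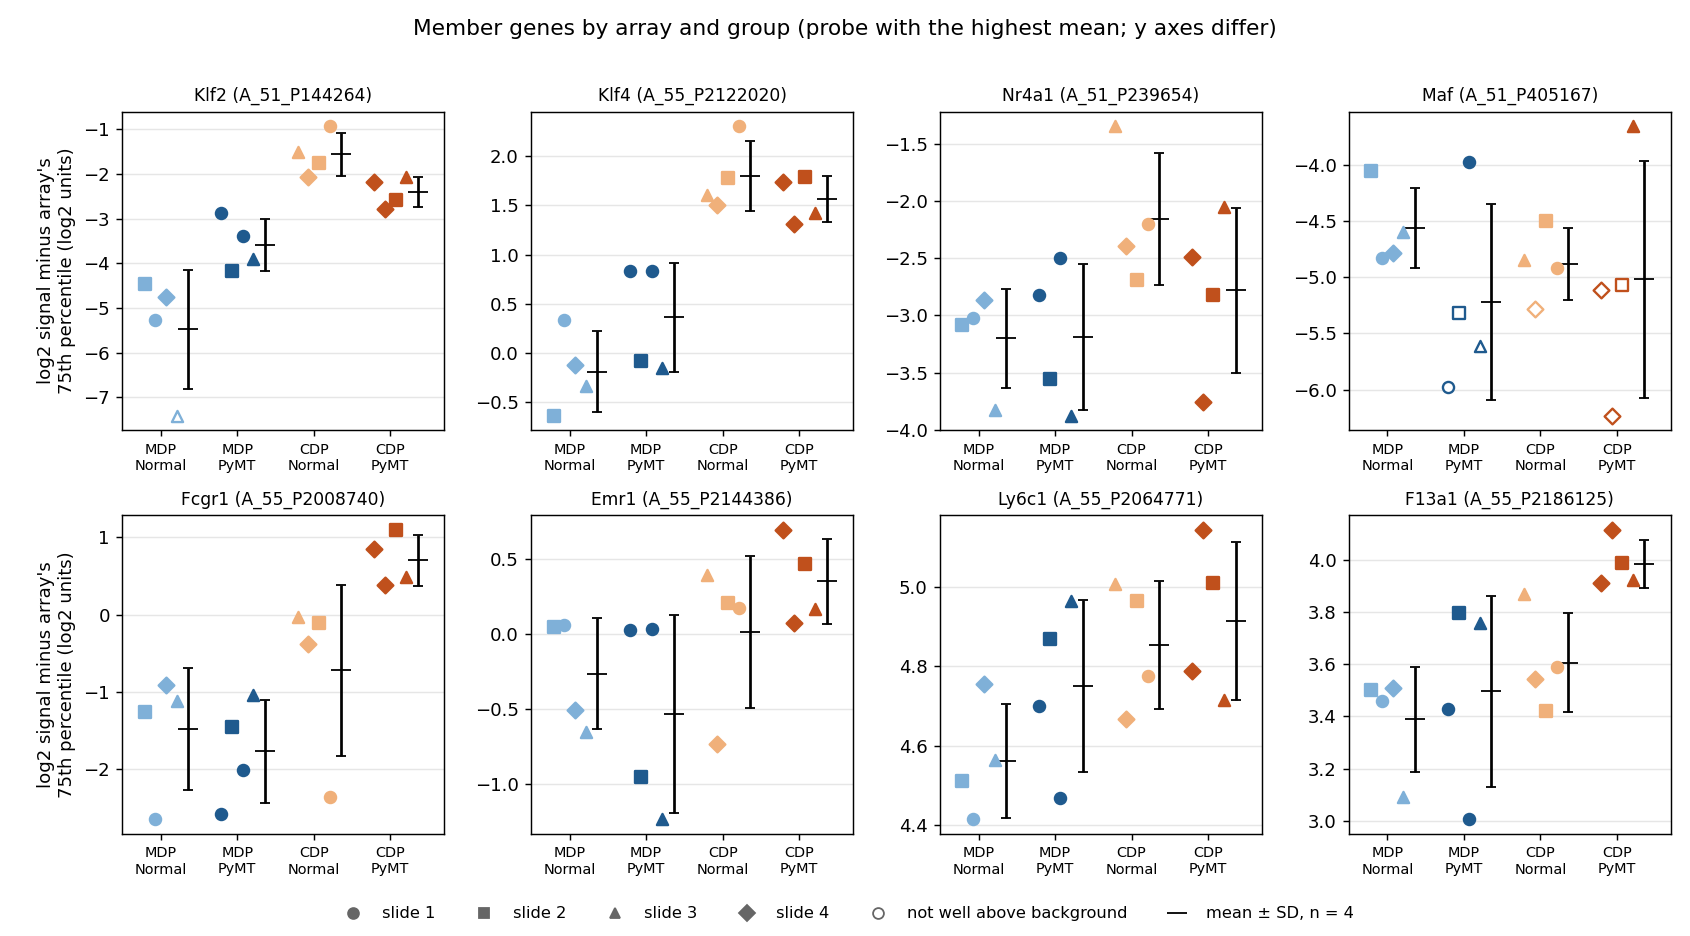
Normalized log2 signal (y axis, log2 units relative to the 75th percentile of the array) of the 8 genes in the 4 groups, by 1 probe of each, with 1 point per array. The marker shape gives the slide, open points were not well above background, and the black bars are the mean ± SD of 4 arrays. Klf2 and Klf4 lie higher in both CDP groups than in both MDP groups, and Fcgr1 lies above 0 only on the 4 CDP_PyMT arrays.

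Klf2 had the widest range of the member probes. Its signal was -4.46, -5.26, -4.76 and -7.41 in MDP_Normal replicates 2 to 5, and -1.51, -2.06, -1.75 and -0.93 in CDP_Normal. MDP_Normal replicate 5 was not well above background, and the other 15 arrays were. In tumor-bearing mice the values were -2.87, -4.18, -3.39 and -3.90 in MDP_PyMT replicates 2 to 5, and -2.18, -2.79, -2.59 and -2.07 in CDP_PyMT. No 2 groups of Klf2 overlapped in the 4 comparisons.

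The step in tumor-free mice was 3.91 ± 0.52 log2 units (SE) with an adjusted p of 0.00049. Within the 4 slides the CDP value was higher by 2.70 to 5.89 log2 units. The size rests on signals near the background of the MDP arrays: with normexp background correction it was 1.703 log2 units (adjusted p = 0.0042), and without MDP_Normal replicate 5 it was 3.26 (adjusted p = 0.00018). In tumor-bearing mice the step was 1.18 ± 0.52 log2 units (95% interval 0.06 to 2.29), with an unadjusted p of 0.040 and an adjusted p of 0.165, and it was 1.59 and 1.83 within the 2 slides that held both groups.

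With tumor, Klf2 moved in opposite directions in the 2 progenitors, and neither change was called. In MDPs the PyMT mean was higher by 1.89 ± 0.52 log2 units (unadjusted p = 0.0027, adjusted p = 0.265), and in CDPs it was lower, at -0.84 ± 0.52 (adjusted p = 0.555). Within slides the MDP difference was 2.14, 0.28 and 3.51, and the CDP difference -0.84, -0.55 and -0.42. The CDP change minus the MDP change was -2.73 ± 0.74 log2 units (unadjusted p = 0.0023), and its adjusted p of 0.749 missed the threshold. With normexp the MDP difference was 0.32 and the difference between the changes -1.04, and without MDP_Normal replicate 5 they were 1.24 and -2.08. The group means ran in the order CDP_Normal, CDP_PyMT, MDP_PyMT, MDP_Normal, and no neighbours in this order differed by a called change.

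Klf4 was measured well above background on all 16 arrays. MDP_Normal replicates 2 to 5 stood at -0.63, 0.34, -0.12 and -0.33, and CDP_Normal replicates at 1.61, 1.51, 1.78 and 2.30. MDP_PyMT replicates 2 to 5 stood at 0.84, -0.08, 0.84 and -0.15, and CDP_PyMT replicates at 1.74, 1.31, 1.79 and 1.42. Every CDP value lay above every MDP value.

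The tumor-free step of Klf4 was 1.98 ± 0.28 log2 units (adjusted p = 0.00075), and 1.63 to 2.41 within the 4 slides. The step in tumor-bearing mice was 1.20 ± 0.28 log2 units (adjusted p = 0.018). Both MDP_PyMT arrays at 0.84 lay on slide 1, where no CDP_PyMT array lay, and within slides 2 and 3 the step was 1.87 and 1.57. With the slide as a block it was 1.59 (adjusted p = 0.00041). The call in tumor-bearing mice was lost without MDP_PyMT replicate 3 (adjusted p = 0.0505), without CDP_PyMT replicate 2 (adjusted p = 0.060), and when the 2 groups were fitted on their own (adjusted p = 0.072).

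The tumor changes of Klf4 were 0.55 ± 0.28 log2 units in MDPs (95% interval -0.05 to 1.15, adjusted p = 0.512) and -0.23 ± 0.28 in CDPs (-0.83 to 0.37, adjusted p = 0.801). The CDP interval leaves out a fall below -0.83 log2 units. Their difference was -0.78 ± 0.40 (adjusted p = 0.749). CDP_Normal and CDP_PyMT, the top 2 groups, and MDP_PyMT and MDP_Normal, the lower 2, were each not separated by a called change.

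**Figure D2:**
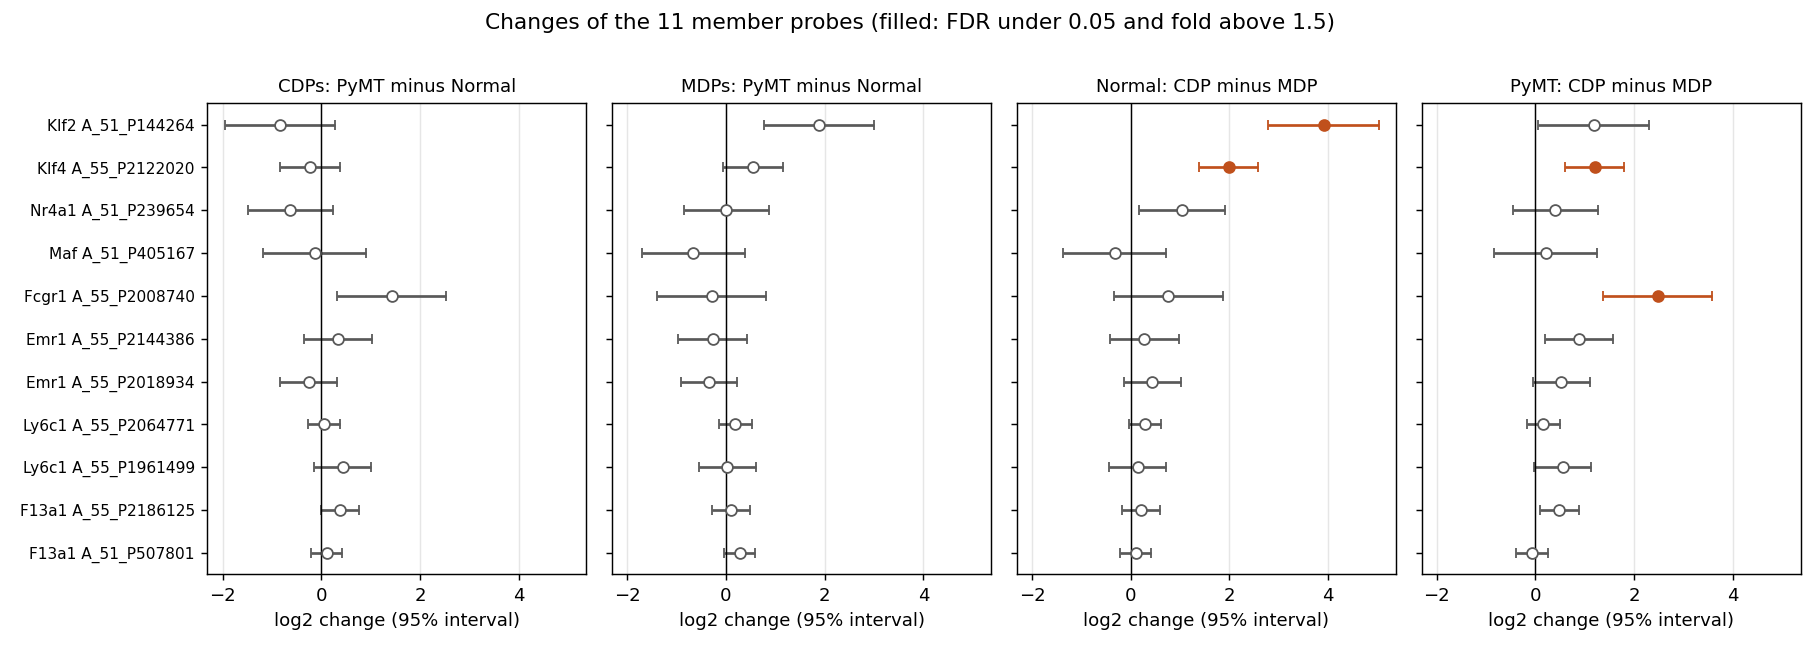
Log2 change (x axis) of each of the 11 member probes in 4 comparisons, with the 95% interval of the limma fit over 16 arrays. Filled points were called. The 2 tumor comparisons on the left hold no filled point, and the 2 steps on the right hold Klf2 (3.91) and Klf4 (1.98) in tumor-free mice and Klf4 (1.20) and Fcgr1 (2.48) in tumor-bearing mice.

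The related KLF genes moved over the same step in both directions. Of 8 other KLF genes, all tested, 3 rose and 1 fell in tumor-free mice, and 4 rose and 1 fell in tumor-bearing mice. The median over the 8 was 0.14 and 0.64 log2 units, beside 0.02 and 0.23 over all 21911 genes tested. By 1 probe a gene, 5.94% of these genes were called in the tumor-free step and 7.02% in the tumor-bearing step. Klf3, a repressor of the family, rose by 1.58 log2 units (adjusted p = 0.00036) and by 1.71 (adjusted p = 0.00015). Klf6, an activator in inflammatory macrophages, rose by 1.47 and 1.77, and Klf10, a target of TGF-beta signaling, by 0.96 and 1.02. Klf13 rose in the tumor-bearing step by 0.59 (adjusted p = 0.041) and had 0.23 in the tumor-free step (adjusted p = 0.597), and the test of the difference, 0.36, gave an adjusted p of 0.749. Klf1, the erythroid member, was lower in CDPs in tumor-free mice (-2.77 log2 units, adjusted p = 0.018), where it was well above background on 1 of 4 CDP arrays. In tumor-bearing mice it was not well above background on any CDP array and was at least 1.59-fold lower than in MDPs (adjusted p = 0.018). Klf5, Klf7 and Klf9 were not called in either step (0.43, 0.69 and -0.33 in tumor-bearing mice). No KLF relative was called for the tumor in either progenitor.

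Nr4a1 lay below the 75th percentile on every array. Its values were -3.08, -3.02, -2.86 and -3.83 in MDP_Normal replicates 2 to 5, and -1.35, -2.39, -2.69 and -2.20 in CDP_Normal, so the 2 tumor-free groups did not overlap. MDP_PyMT replicates stood at -2.82, -3.55, -2.50 and -3.87, and CDP_PyMT replicates at -2.49, -3.76, -2.82 and -2.06, and these 2 groups overlapped. The tumor-free step was 1.04 ± 0.40 log2 units (unadjusted p = 0.022), higher on the CDP array of all 4 slides by 0.40 to 2.48, with an adjusted p of 0.174 that missed the threshold. The tumor changes were -0.62 ± 0.40 in the CDP groups (adjusted p = 0.577) and 0.01 ± 0.40 in the MDP groups (95% interval -0.86 to 0.88, adjusted p = 0.993). Of its 2 relatives only Nr4a2 was tested, and it was called in none of the 5 comparisons.

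Maf was at the edge of detection. Its probe was well above background on 4 MDP_Normal arrays (-4.05, -4.83, -4.78 and -4.59 in replicates 2 to 5) and on 3 CDP_Normal arrays. With tumor it was well above background on 1 of 4 MDP_PyMT arrays (replicate 4, at -3.97) and on 1 of 4 CDP_PyMT arrays (replicate 5, at -3.65). CDP_Normal ran from -5.28 to -4.50, MDP_PyMT from -5.98 to -3.97, and CDP_PyMT from -6.23 to -3.65, so all 4 groups overlapped. The changes were -0.66 ± 0.48 log2 units with tumor in MDPs (adjusted p = 0.608) and -0.13 ± 0.48 in CDPs (adjusted p = 0.933), and a change was not detectable at these signals. Its small MAF relatives Mafg and Mafk were tested and were not called in any comparison.

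Fcgr1 was well above background on all 16 arrays. MDP_Normal replicates 2 to 5 had -1.26, -2.65, -0.91 and -1.12, and MDP_PyMT replicates had -2.59, -1.45, -2.01 and -1.05. CDP_Normal replicates had -0.03, -0.38, -0.11 and -2.37, and CDP_PyMT replicates had 0.85, 0.38, 1.099 and 0.49. The 4 CDP_PyMT values lay above all 12 others. The 4 lowest values, MDP_Normal replicate 3, MDP_PyMT replicates 2 and 4 and CDP_Normal replicate 5, were the 4 arrays of slide 1, which held no CDP_PyMT array.

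In tumor-bearing mice Fcgr1 was higher in CDPs by 2.48 ± 0.52 log2 units (adjusted p = 0.0099). Within slides 2 and 3 the difference was 2.55 and 1.53, and with the slide as a block it was 1.71 (adjusted p = 0.0052). In tumor-free mice the step was 0.76 ± 0.52 (95% interval -0.34 to 1.87, adjusted p = 0.571), and 0.28 to 1.15 within the 4 slides. With the slide as a block this tumor-free step was 0.76 (adjusted p = 0.062). Without CDP_Normal replicate 5 it was 1.31 (adjusted p = 0.0895), and neither value passed the threshold. The tumor change in CDPs was 1.43 ± 0.52 log2 units, with an unadjusted p of 0.015 and an adjusted p of 0.206. It was 1.21, 0.51 and 0.99 within slides 2, 3 and 4, and with the slide as a block it was 1.04 and passed the threshold (adjusted p = 0.039). Without CDP_Normal replicate 5 it was 0.88 (adjusted p = 0.472). In MDPs the change was -0.29 ± 0.52 (adjusted p = 0.808), and the difference between the progenitors was 1.71 ± 0.73 (unadjusted p = 0.034, adjusted p = 0.749).

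**Figure D3:**
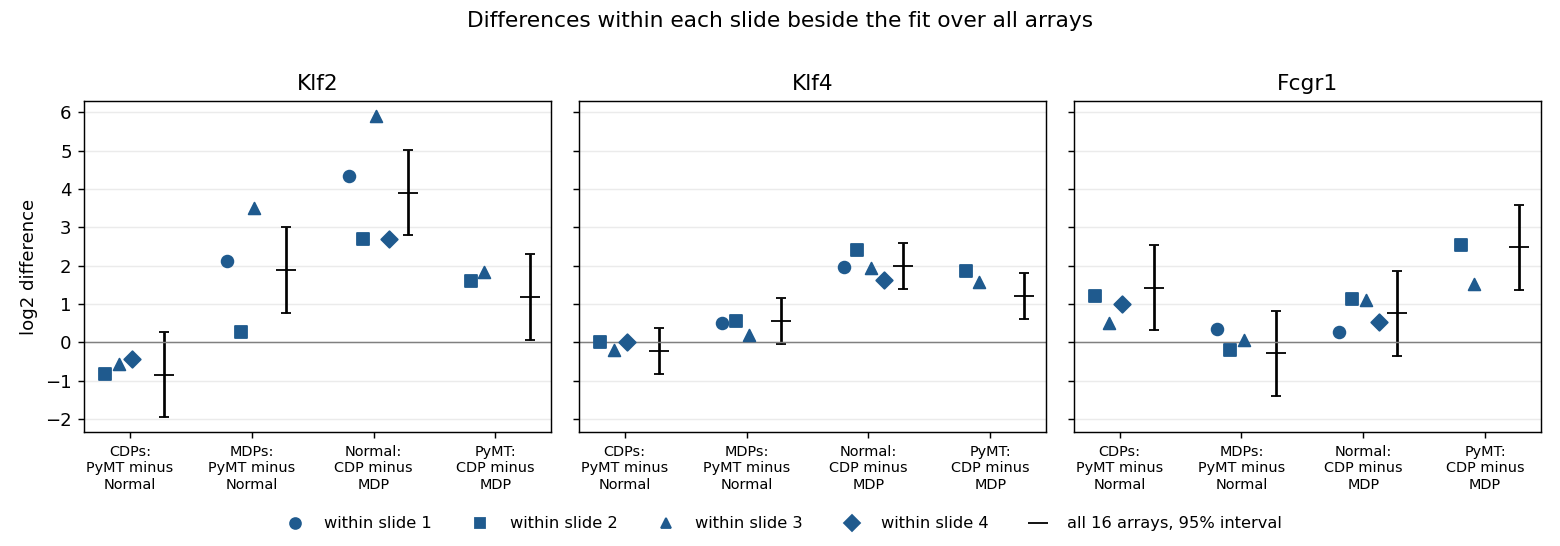
Log2 differences (y axis) of Klf2, Klf4 and Fcgr1 within each slide that held both groups (blue markers, 1 per slide) beside the limma estimate over all 16 arrays with its 95% interval (black). The tumor-free step of Klf2 and Klf4 is positive on all 4 slides, and the Fcgr1 difference between CDP_PyMT and CDP_Normal is positive on 3 of 3.

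The other Fc gamma receptor genes were tested too. Fcgr3, the low-affinity activating receptor CD16, rose with tumor in CDPs by 0.87 log2 units (adjusted p = 0.020), and its change in MDPs was 0.38 (adjusted p = 0.469). Fcgr4, an activating receptor of nonclassical monocytes, had 0.83 in CDPs (adjusted p = 0.134). Fcgr2b, the inhibitory receptor, had 0.28 (adjusted p = 0.349), and Fcer1g, the signaling chain shared by the activating receptors, had -0.10 (adjusted p = 0.783). Of the 4 genes 1 was called with tumor in CDPs, beside 1.74% of all genes, and 0 in MDPs, beside 0.073%. The Fcgr3 change in CDPs minus that in MDPs was 0.50 log2 units (adjusted p = 0.749).

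Emr1 was read by 2 probes whose values correlated over the 16 arrays (r = 0.69). Probe A_55_P2144386 had 0.04, 0.06, -0.51 and -0.66 in MDP_Normal replicates 2 to 5 and 0.39, -0.74, 0.20 and 0.17 in CDP_Normal, which overlapped. It had 0.02, -0.95, 0.03 and -1.24 in MDP_PyMT and 0.69, 0.07, 0.46 and 0.17 in CDP_PyMT, which did not overlap. The tumor-bearing step was 0.88 ± 0.33 log2 units (unadjusted p = 0.017, adjusted p = 0.112), and with the slide as a block it was 1.305 and passed the threshold (adjusted p = 0.024). The second probe, A_55_P2018934, gave 0.52 ± 0.27 for this step (adjusted p = 0.205). Its tumor change in CDPs was -0.25 ± 0.27, against 0.34 ± 0.33 by the first probe, and both intervals held 0. Adgre5, the relative that encodes CD97 of leukocytes, rose in both steps, by 1.75 log2 units (adjusted p = 0.00037) and by 2.31 (adjusted p = 3.0e-05).

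Ly6c1 varied little between groups, and none of its changes was called. By probe A_55_P2064771 the values ran from 4.41 to 4.76 in MDP_Normal, 4.47 to 4.97 in MDP_PyMT, 4.67 to 5.01 in CDP_Normal and 4.72 to 5.15 in CDP_PyMT. By probe A_55_P1961499 they ran from 3.78 to 4.49, 3.53 to 4.78, 3.92 to 4.57 and 4.64 to 4.83 in the same order, and CDP_PyMT did not overlap CDP_Normal. The tumor change in CDPs was 0.06 ± 0.15 log2 units by the first probe (95% interval -0.27 to 0.39, adjusted p = 0.90) and 0.44 ± 0.27 by the second (-0.14 to 1.01, adjusted p = 0.549). In MDPs it was 0.19 ± 0.15 and 0.03 ± 0.27. No gene named Ly6c2 was read here, and whether these probes also take up transcripts of that near-identical neighbor was not tested. Of 3 relatives tested, Ly6a, the stem cell antigen Sca-1, rose in the tumor-bearing step (0.93, adjusted p = 0.0088) and had 0.66 in the tumor-free step (adjusted p = 0.053). Ly6d and Ly6e had 1.15 and 0.16 in the tumor-bearing step and were called in no comparison. The second probe of Ly6c1 and a probe of F13a1 are shown because each parted from the other probe of its gene in the tumor change of CDPs. Both lie on the minus strand of mm9, as the array files give it.
Ly6c1 probe A_55_P1961499, chr15:74877785-74877844: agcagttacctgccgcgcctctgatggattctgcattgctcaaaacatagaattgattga
F13a1 probe A_55_P2186125, chr13:37063829-37063888: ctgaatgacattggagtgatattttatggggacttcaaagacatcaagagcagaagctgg

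F13a1 also had small changes, and none was called. Probe A_55_P2186125 had 3.50, 3.46, 3.51 and 3.09 in MDP_Normal replicates 2 to 5, 3.43, 3.80, 3.01 and 3.76 in MDP_PyMT, 3.87, 3.54, 3.42 and 3.59 in CDP_Normal, and 3.91, 4.11, 3.99 and 3.92 in CDP_PyMT. All 4 CDP_PyMT values lay above all others. The tumor change in CDPs was 0.38 ± 0.18 log2 units (adjusted p = 0.381), and the tumor-bearing step was 0.49 ± 0.18 (unadjusted p = 0.017, adjusted p = 0.114). The other probe, A_51_P507801, lies at chr13:36959214-36959273 and gave 0.11 ± 0.15 and -0.07 ± 0.15 for these comparisons. The 2 probes did not vary together over the arrays (r = -0.04), so no direction is given for the gene. Among the other transglutaminases Tgm1, the keratinocyte enzyme, rose with tumor in CDPs by 2.57 log2 units (adjusted p = 0.0028). Tgm2, the tissue enzyme, had 0.13 (adjusted p = 0.914).

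Groups that did not overlap were counted over all probes as well. In the tumor comparison of CDPs 4 of 11 member probes did not overlap (Klf2, Fcgr1 and the 2 probes printed above), beside 11.1% of all probes. In MDPs 1 of 11 did not (Klf2), beside 5.22%. In the tumor-free step 3 of 11 did not (Klf2, Klf4 and Nr4a1), beside 13.3%, and in the tumor-bearing step 5 of 11 did not (Klf2, Klf4, Fcgr1, Emr1 probe A_55_P2144386 and F13a1 probe A_55_P2186125), beside 14%.

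The direction of small changes depended on the scaling. The median over all probes was 0.08 log2 units for the tumor in CDPs, -0.11 in MDPs, 0.02 for the tumor-free step and 0.19 for the tumor-bearing step, and 0.023, 0.020, -0.0022 and -0.024 after quantile normalization. In the tumor-bearing step 10 of 11 member probes (90.9%) had a higher CDP mean, and 8 of 11 (72.7%) under quantile normalization. For the tumor in CDPs 6 of 11 (54.5%) were higher, and 4 of 11 (36.4%) under quantile normalization. In the tumor-free step the count was 10 of 11 under both. The called values were larger than these shifts.

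Other monocyte and macrophage genes were counted by 1 probe a gene. The lists follow general knowledge of these cells but were chosen with earlier results of these data known, so their counts are a description. Of 14 classical monocyte genes tested, 7 rose and 0 fell from MDPs to CDPs in tumor-free mice, with a median of 0.97 log2 units, and 8 rose and 0 fell in tumor-bearing mice, with a median of 1.04. Over all genes 5.94% were called in the tumor-free and 7.02% in the tumor-bearing step, with medians of 0.02 and 0.23. Fn1, which encodes fibronectin, rose by 2.97 log2 units (adjusted p = 0.00018) in tumor-free and by 2.95 (adjusted p = 0.00015) in tumor-bearing mice. Lyz2, the lysozyme of myeloid cells, rose by 2.29 and 2.75, and S100a4, a calcium-binding protein, by 1.44 and 1.79. Ccr2, the chemokine receptor by which classical monocytes leave the marrow, rose by 1.003 and 0.80. Chil3, a chitinase-like secreted protein, rose by 3.14 and 2.02, Mpeg1, a pore-forming protein of phagocytes, by 1.06 and 1.37, and Lyz1 by 1.05 and 1.28. Vcan, a proteoglycan of classical monocytes, rose in the tumor-bearing step by 4.42 log2 units (adjusted p = 0.0086), with 2 of 4 MDP_PyMT arrays well above background.

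With tumor in CDPs 2 of 14 classical monocyte genes rose (Vcan by 3.97 log2 units, adjusted p = 0.041, and Hp, which encodes haptoglobin, by 1.12, adjusted p = 0.026), beside 1.74% of all genes, with a list median of 0.29 against 0.09 over all genes. In MDPs 1 of 14 rose (Chil3 by 3.21, adjusted p = 0.049), beside 0.073%, with medians of 0.08 and -0.14.

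Of 14 macrophage genes tested, 2 rose in the tumor-free step, beside 5.94% of all genes called. They were Cd68, a lysosomal glycoprotein, by 0.68 log2 units, and Trem2, a lipid-sensing receptor, by 0.86. In the tumor-bearing step 3 rose, beside 7.02% called. They were Cd68 by 0.78, Trem2 by 1.33, and Msr1, a scavenger receptor, by 4.39 with 1 of 4 MDP_PyMT arrays well above background. Trem2 also rose with tumor in CDPs (1.098, adjusted p = 0.013). None of the 14 was called lower in any comparison, and none was called either way with tumor in MDPs, where 2 of 14 were higher. There the list median was -0.79 log2 units, against -0.14 over all genes. Some of the list was dim in MDPs: Mertk, Msr1 and Mrc1 were well above background on 0, 1 and 1 of 4 MDP_PyMT arrays. With tumor in CDPs the list median was 0.37, against 0.09 over all genes. Of 8 nonclassical monocyte genes 0 were called in all 5 comparisons. Cx3cr1, their fractalkine receptor, had -1.27 with tumor in CDPs and -1.096 in MDPs (adjusted p = 0.148 and 0.413).

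Of 14 commitment factors and receptors, 2 rose in the tumor-free step (Irf5, an interferon regulatory factor of inflammatory macrophages, by 1.55 log2 units, and Klf6) and 3 in the tumor-bearing step (Irf5 by 1.44 and Klf6 among them). Over all genes the shares called were 5.94% and 7.02%. None of the 14 was called for the tumor. Csf1r, the receptor of macrophage colony-stimulating factor, had tumor changes of -0.21 log2 units in CDPs and -0.12 in MDPs (adjusted p = 0.721 and 0.767). Spi1, which encodes PU.1, had 0.22 and 0.16, Zeb2 had -0.57 and -0.057, and Egr1 had 0.37 and -0.31, with adjusted p-values of 0.530 or more.

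**Figure D4:**
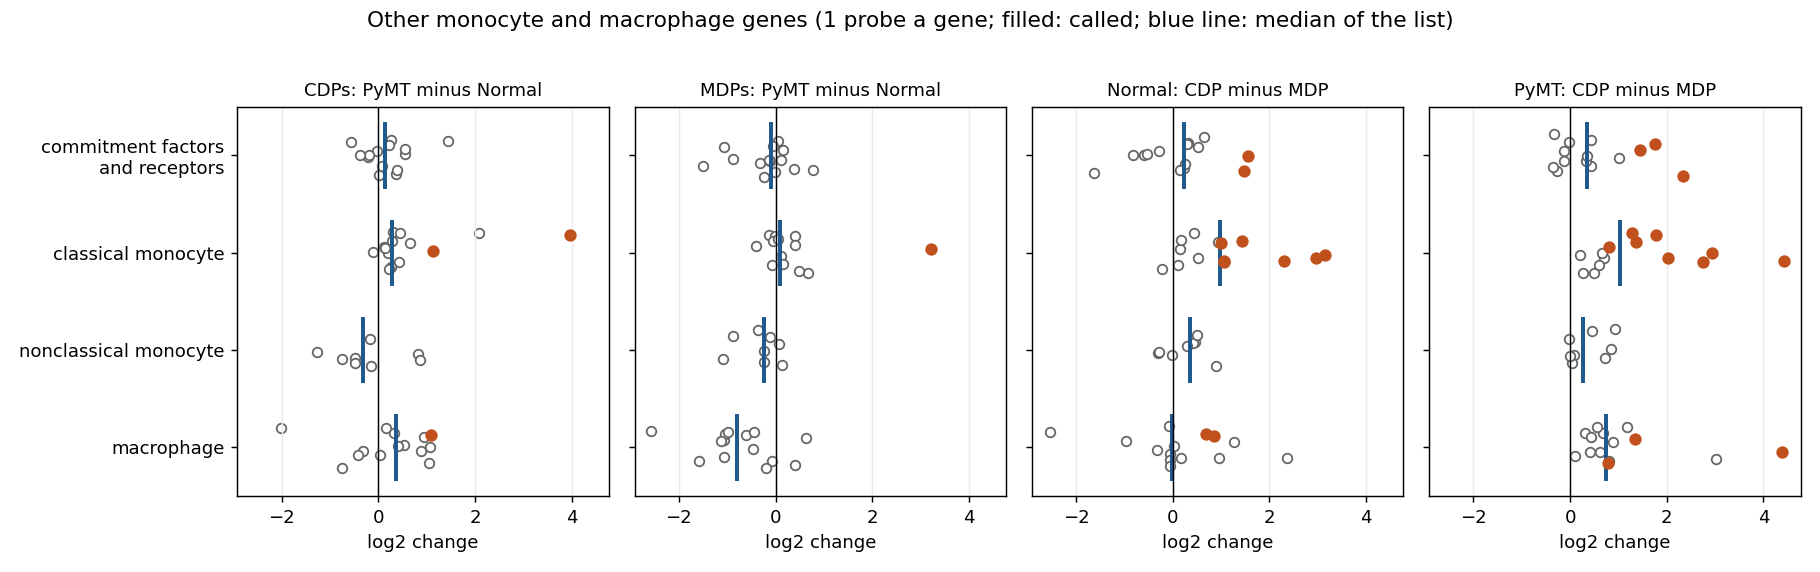
Log2 change (x axis) of single genes in 4 lists of monocyte and macrophage genes, by comparison. Filled points were called, blue lines are list medians, and the vertical scatter has no meaning. In the classical monocyte list 7 of 14 genes are filled in the tumor-free step and 8 of 14 in the tumor-bearing step, against 2 and 1 in the tumor comparisons of CDPs and MDPs. Over all genes 5.94%, 7.02%, 1.74% and 0.073% were called, in the same order.

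Markers of other cells moved with the groups as well. Among 8 neutrophil genes tested, 2 were called with tumor in CDPs, beside 1.74% of all genes. Mmp8 rose by 1.87 log2 units (adjusted p = 0.0036) and Elane by 1.12 (adjusted p = 0.023). The mean of this list over the genes ran from -1.08 to 0.73 on the CDP_Normal arrays and from -0.07 to 0.69 on the CDP_PyMT arrays. Camp, Ngp and Ltf, granule genes of later neutrophils, had means of -3.02, -3.28 and -3.48 in CDP_PyMT against -2.38, -3.03 and -3.03 in CDP_Normal. S100a8, S100a9 and Mpo were higher in CDP_PyMT by 2.19, 0.88 and 0.42 log2 units (adjusted p = 0.104, 0.810 and 0.389). In all 5 of the 8 genes were higher, with a list median of 0.65. Among 4 dendritic cell genes tested, 1 was called with tumor in each progenitor, beside 1.74% of all genes in CDPs and 0.073% in MDPs. It was Cd209a, lower in CDPs (-3.25 log2 units, adjusted p = 0.0026). In MDPs it was at least 2.84-fold lower (adjusted p = 0.011), with 0 of 4 MDP_PyMT arrays well above background. In either progenitor 0 of the 4 genes were higher with tumor. The list mean ran from -0.11 to 0.30 in CDP_Normal and from -3.56 to -1.19 in CDP_PyMT. From MDPs to CDPs 1 of these 4 genes rose in tumor-free mice (Cd209a by 5.24, adjusted p = 1.0e-05) and 2 of 4 in tumor-bearing mice. Over all genes 5.94% and 7.02% were called in these steps. Kit was lower with tumor in CDPs (-1.34, adjusted p = 0.0044). Markers of lymphoid and tumor cells gave signal in part. On 3 of 4 arrays or more, 2 to 3 of 6 B cell markers were well above background depending on the group, 3 to 4 of 6 T and NK cell markers, and 3 to 4 of 6 mammary tumor cell markers. Cd79b and Pax5 of B cells, Cd3e, Ncr1 and Nkg7 of T and NK cells, and Krt18, Krt14 and Cldn4 of epithelium were so in all 4 groups, and Ms4a1, Cd3g, Cd8a and Cdh1 in none. The mean of the tested B cell markers ran from -1.74 to -0.84 in CDP_Normal and from -1.34 to -0.84 in CDP_PyMT, that of the T and NK cell markers from -3.05 to -1.83 and from -2.19 to -1.79, and that of the mammary markers from -4.00 to -2.76 and from -4.07 to -2.91. None of these markers was called for the tumor in either progenitor, and Nkg7 was lower in CDPs in both steps (-3.12 and -2.78). The part of such cells in the member changes was not tested.

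The genes most like each member across the 16 normalized arrays are given as a description, since the arrays share slides and groups. Klf4 ran close to Sema4a (r = 0.96) and Sorl1 (r = 0.95), and Klf2 closest to Sgk1, a serum-induced kinase (r = 0.95), Rara and Ap1s2. Fcgr1 ran closest to Gm9258 (r = 0.96), Fxyd5 and Bin2, and after each slide's mean was taken out these values were 0.89, 0.89 and 0.86. Nr4a1 ran closest to Stxbp3, Mrc1 and Itgax (r = 0.80 to 0.86), Emr1 to Aplp2, Cxcl10 and Bach1 (0.86 to 0.88), Ly6c1 to Cxcr4, H2-D1 and Anxa1 (0.90 to 0.91), and F13a1 to Laptm5 (0.85) and the transcripts listed as ENSMUST00000055957 and NAP113539-1. Maf had no gene above 0.77, which was Cant1. Among the members themselves Klf2 and Klf4 were the closest pair (r = 0.86), and F13a1 and Ly6c1 followed (0.73). Each member enters here by its brightest probe. The F13a1 values are those of probe A_55_P2186125 only, with which the gene's other probe did not vary (r = -0.04).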

How the data were processed

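The 16 one-color (Cy5) Agilent mouse arrays were grouped by their titles. The authors deposited 1 scanner file an array, made with Feature Extraction 11.5.1.1, whose processed signal is an intensity after background subtraction and detrending within the array. The tables also hold flags of 0 or 1 for spots. The authors also deposited a table of log2 values for 26793 probes, which lay nearest to the log2 processed signals of their own arrays for 16 of 16 columns. Its array medians ran from 10.22 to 10.33, its scaling between arrays is not stated, and it was used as an alternative only. The submitters' notes name limma. Probe positions are those of the files, on mm9.

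Control spots and outlier-flagged spots were dropped. From the log2 of the processed signal the 75th percentile of its array was subtracted, spots of a probe were averaged, and a probe was tested (27433 of 39429) where some group had 3 of 4 arrays or more well above background. Group means came from a linear model (limma 3.58.1, R 4.3.3) with Benjamini-Hochberg adjustment over all probes tested. The thresholds of fold and FDR follow the study's methods. The procedure was tested on simulated data. A gene with several tested probes stands in lists by its brightest probe. The members and lists were chosen with earlier results of these data known. Every member probe is named, list genes are named where called and otherwise up to 4 a list in a set order, and the 3 genes most like each member are given. Some genes of this rule are not reported here. Alternatives covered background correction, scaling, filters, blocks, tests and left-out arrays. The number of arrays limits the precision: the median SE of a change was 0.306 log2 units.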

Additional observations from a re-analysis of the deposited data

Results flagged for a closer look

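In groups of 4 arrays, an array was marked when its gap to the nearest other made up more of the group's range than Dixon's 95% criterion allows, which chance alone does in about 5% of groups, and 44 groups of member probes were looked at. Fcgr1 in CDP_Normal replicate 5 was -2.37, and its gap took 0.851 of the range of that group. Emr1 by probe A_55_P2018934 in MDP_Normal replicate 2 was -0.26 (0.850 of the range). F13a1 by probe A_55_P2186125 in MDP_Normal replicate 5 was 3.09 (0.887 of the range).

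The tumor change of Klf2 in CDPs minus that in MDPs was -2.73 log2 units, marked because all MDP_PyMT values lay above all MDP_Normal values while all CDP_PyMT values lay below all CDP_Normal values. The test of this difference by limma over all probes gave an adjusted p of 0.749.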

How the results depend on the processing

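The calls of Klf2 and Klf4 in the tumor-free step and of Fcgr1 in the tumor-bearing step held in every alternative in which the probe was tested (16, 17 and 17 settings), and that of Klf4 in the tumor-bearing step in 13 of 17. Requiring signal above background on all 16 arrays leaves Klf2 untested, so 1 probe was called in the tumor-free step. With the slide as a block 1 probe was called for the tumor in CDPs (Fcgr1). In the tumor-bearing step 1 probe was called when only the groups compared were fitted and by an unpaired t-test with Benjamini-Hochberg adjustment, and 1 to 2 when an array was left out. The study's general statistics name an unpaired t-test, and its array methods name no test. The unpaired t-test at an unadjusted 0.05, chosen after seeing the data, called 2 probes for the tumor in CDPs, 1 in MDPs and 4 in the tumor-bearing step. Of 55 member changes 13 turned sign in some setting, and none of these was called.

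The cause was not tested for the following changes that turned sign, in log2 units. With normexp, Maf had 0.060 for the tumor in CDPs and -0.011 for the tumor-bearing step, Nr4a1 had -0.22 for the tumor in MDPs, and F13a1 by probe A_51_P507801 had 0.12 for the difference of tumor changes, -0.012 for the tumor-free and 0.11 for the tumor-bearing step. With quantile normalization and with the deposited table, in this order, F13a1 by that probe had -0.082 and -0.081 for the tumor in CDPs, Ly6c1 by A_55_P2064771 had -0.24 and -0.24 for the tumor in CDPs and -0.16 and -0.15 for the tumor-bearing step, Ly6c1 by A_55_P1961499 had -0.060 and -0.063 for the tumor in MDPs, and Maf had -0.041 and -0.015 for the difference and -0.52 and -0.45 for the tumor-bearing step. With the slide as a block, Maf had 0.045 for the tumor in CDPs, Fcgr1 0.096 and Nr4a1 -0.14 for the tumor in MDPs, and F13a1 by A_51_P507801 0.078 for the tumor-bearing step. With an array left out, Emr1 by A_55_P2018934 ran from -0.21 to 0.23 for the difference, F13a1 by A_51_P507801 from -0.13 to 0.011 and Maf from -0.25 to 0.62 for the tumor-bearing step, Ly6c1 from -0.17 to 0.24 (A_55_P1961499) and Nr4a1 from -0.22 to 0.24 for the tumor in MDPs, and Ly6c1 by A_55_P2064771 from -0.016 to 0.13 and Maf from -0.59 to 0.27 for the tumor in CDPs.

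Whether arrays of equal replicate number belong together could not be decided. The correlations of same-numbered deviations ran from -0.63 to 0.48, and not all passed 0.1 in any comparison. The lowest value came from arrays on different slides and the highest from arrays on the same slide. These correlations can therefore carry the slide layout as well as any pairing. With the replicate block 2 probes were called in each step and 0 for the tumor, as without it. Maf and, in MDPs, Klf2 lay near background, which limits their changes.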
